A study of Mus musculus with 12 samples.

Results

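The extracellular matrix genes of the mouse fallopian tube are described here: the collagens, laminins, nidogens, elastic fibre proteins, lysyl oxidases, small proteoglycans and matricellular proteins. They were chosen by name from the array annotation. The rule took every symbol that begins with a collagen chain, laminin chain, fibulin, spondin, emilin or another matrix stem on a list. It used no measured value, though the genes were chosen with earlier results of these data known. The rule matched 80 annotated genes, and 68 of them, read by 90 probes, had values, among 11229 genes measured in all. The other 12 were blank on every array and are not described further: Col6a6, Col9a1, Col9a3, Col10a1, Col11a2, Col13a1, Col19a1, Fbln5, Fbln7, Lama4, Loxl3 and Thbs4. Mfap3l shares only the spelling of its name with the microfibril-associated proteins.

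Whole fallopian tubes came from 3 wildtype C57BL6 and 3 mogp-TAg transgenic female mice, and the ages of 7, 8 and 9 weeks were each represented by 1 mouse per genotype. In mogp-TAg mice the promoter of Ovgp1, a secreted glycoprotein made by the secretory cells of the tubal lining, drives the large T antigen of a polyomavirus, which inactivates the RB proteins and p53. Ovgp1 itself was bright in every mouse, with signals from 22353 to 23114 in wildtype and from 18541 to 20773 in transgenic mice. Each mouse was measured on 2 Illumina arrays, which the labels call experimental repeats without saying whether they share an RNA extract, so the mouse was the replicate. Nothing in the labels says that the mice came from separate litters. The transgenic tube of 7 weeks stood apart in the ovary markers Inha and Gdf9. Inha, an inhibin chain of granulosa cells, read 678 there and 102 to 160 in the other 5 mice. Gdf9, an oocyte growth factor, read 714 against 122 to 267. The ovary markers Zp3 and Cyp11a1 were also highest there, at 196 and 180.5. Foxl2, another ovary marker, was not, at 105 against 105 to 122, all of it weak signal. The sum of 5 ovary markers was 1874 in that mouse, against 527 to 777 in wildtype mice. Without it 7 matrix genes were higher and 9 lower (10.8% and 13% of all genes), and of the calls described below Col15a1, Col8a2 and Mfap3 were lost. The part of ovarian tissue in the results was not tested.

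Values are quantile-normalized signals, the brightness of a probe in arbitrary units after the 12 arrays were given 1 common distribution. A mouse's signal is the geometric mean of its 2 arrays. A probe's brightness depends on its sequence, so levels are compared between mice and never between genes. Signals below 145 lay near the floor of the array, where most of the brightness is background and any true fold is understated. In bulk tissue, fewer cells of a type and less RNA per cell cannot be told apart.

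As background, collagen fibrils and elastic fibres give a tissue its strength and recoil, and small proteoglycans such as decorin coat fibrils and set their spacing. Basement membranes are thin sheets under epithelia and around muscle cells and vessels. They are built from collagen IV and laminin networks that nidogens tie together. In the fallopian tube the folded epithelium rests on such a sheet, over a fibroblast-rich stroma and a coat of smooth muscle.

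Of the 68 matrix genes, 5 were higher and 10 were lower in the transgenic tubes, and 53 did not pass (limma, Benjamini-Hochberg adjusted p below 0.05 over all 16664 probes tested, 3 mice per genotype). Lamb3, Mfap5, Nid2, Lox and Mfap3 rose. Spon2, Dpt, Loxl1, Col15a1, Lum, Col4a5, Col4a6, Dcn, Thbs3 and Col8a2 fell. The share past the threshold, 22.1%, lay close to the 22.9% of all genes that passed, of which 10.4% were higher and 12.5% lower. The median log2 difference, transgenic minus wildtype, was -0.02 for the matrix genes and -0.02 for all genes. With all 6 mice the matrix genes as a class therefore stood at the level of the array as a whole. Single genes within the class differed by up to log2 -2.33 (Spon2) and 1.86 (Lamb3).

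All 15 genes differed in 1 direction at each of the 3 ages, which follows because the mice of the genotypes overlapped in none. Genes past the threshold are selected to be apart, so this adds no support to the calls. In 9 of the 15, Spon2, Dpt, Loxl1, Col15a1, Thbs3, Mfap3, Nid2, Mfap5 and Lamb3, all 6 transgenic arrays lay on 1 side of all 6 wildtype arrays. The share of all called genes with arrays so apart was not counted. The mice of the genotypes did not overlap in 31 of the 68 genes, against 41.1% of all genes. With the repeat number of the arrays as a block, 9 genes were higher and 15 lower, the same 15 among them, while 12.9% of all genes were higher and 15.6% lower. This fit used the 12 single arrays in place of mouse values, with a correlation of 0.311 set between the 2 arrays of a mouse. The differences stayed the same, and its p-values rest in part on the spread between the arrays of a mouse. The added calls were Col9a2, Col26a1, Lamc3 and Postn, higher, and Spon1, Col18a1, Sparc, Bgn and Lamb1, lower. Without the transgenic mouse of 8 weeks the counts were 3 higher and 4 lower, and those of all genes fell as well, to 5.46% higher and 6.09% lower. Without the wildtype mouse of 7 weeks 3 were higher and 8 lower (7.28% and 8.84% of all genes). Without that of 9 weeks 3 were higher and 13 lower (6.74% and 8.05% of all genes). The lower genes were then a larger share of the 68 than of all genes. A total of 16 genes lay near the floor in both genotypes: Col2a1, Col5a2, Col5a3, Col8a2, Col11a1, Col17a1, Col24a1, Col25a1, Col27a1, Col28a1, Emilin3, Fbn2, Loxl2, Loxl4, Mfap3l and Postn. For these any true fold is understated, and whether the genes were expressed was not tested.

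**Figure D1:**
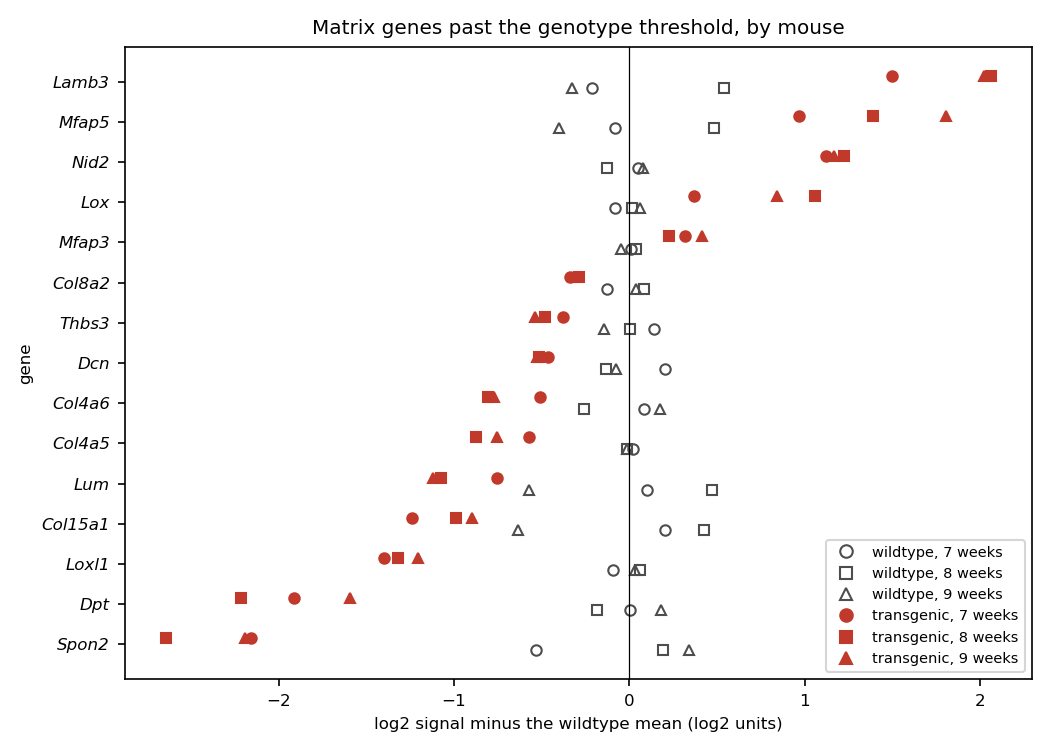
Log2 signal of each mouse minus the wildtype mean of the gene (horizontal axis, log2 units) for the 15 matrix genes past the genotype threshold, with open grey symbols for wildtype mice, filled red symbols for transgenic mice, and the shape giving the age. In each row the 3 transgenic mice lie on 1 side of the 3 wildtype mice, and Spon2 at the bottom and Lamb3 at the top are farthest apart.

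Spon2 had the largest fall of the matrix genes. It encodes spondin 2, a secreted protein related to F-spondin with a part in innate immunity. Its signal was 3562, 5888 and 6542 in the wildtype mice of 7, 8 and 9 weeks and 1154, 826 and 1131 in the transgenic mice. Every transgenic mouse lay far below every wildtype mouse. The gene fell 5.03-fold (log2 -2.33, SE 0.24, limma adjusted p = 0.000887). The gap was smallest at 7 weeks, at log2 -1.63, with -2.83 at 8 weeks and -2.53 at 9 weeks, each from 1 mouse per genotype. The other spondin, Spon1, had signals of 200, 478 and 264 in wildtype and 125, 139 and 193 in transgenic mice and did not pass (log2 -0.97, adjusted p = 0.0672, and 0.0137 with the repeat number as a block).

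Small proteoglycans and dermatopontin bind the outside of collagen fibrils, and 3 of the 4 that the name rule matched fell. Among small proteoglycans outside the rule, Prelp fell (log2 -1.10). Ogn (log2 -1.01), Omd (log2 0.32) and Fmod (log2 -0.10, near the floor) did not pass. Dpt, dermatopontin, which binds decorin and speeds fibril assembly, read 1745, 1531 and 1972 in wildtype and 462, 375 and 576 in transgenic mice. The groups were well apart, a fall of 3.75-fold (log2 -1.91, SE 0.17, limma adjusted p = 0.000546). Lum encodes lumican, a keratan sulfate proteoglycan that limits fibril thickness. Its signals were 4056, 5248 and 2541 in wildtype and 2240, 1799 and 1744 in transgenic mice, so the wildtype mouse of 9 weeks lay only slightly above the transgenic mouse of 7 weeks. The fall was 1.97-fold (log2 -0.98, SE 0.25, adjusted p = 0.0311), and it did not pass when any 1 of 4 mice was left out. Dcn, decorin itself, read 17326, 13744 and 14306 against 10924, 10528 and 10464. Those 6 signals did not overlap, and the fall was 1.41-fold (log2 -0.50, SE 0.11, adjusted p = 0.0155), lost without the transgenic mouse of 8 weeks. Another Dcn probe differed by log2 -0.55 and also passed. Biglycan, Bgn, a close relative of decorin, read 7785, 7132 and 9983 against 6179, 6068 and 6347 and did not pass (log2 -0.41, adjusted p = 0.0641, and 0.0303 with the repeat number as a block).

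Lysyl oxidases oxidize lysines of collagen and elastin so that the fibres become crosslinked. Of the 4 measured, 1 rose and 1 fell. Loxl1, the family member tied to elastic fibre upkeep in mice, read 2504, 2789 and 2733 in wildtype and 1015, 1072 and 1160 in transgenic mice. Both groups were tight, and the fall was 2.47-fold (log2 -1.31, SE 0.09, limma adjusted p = 0.000312). Lox, the founding enzyme, read 726, 776 and 801 in wildtype and 990, 1596 and 1377 in transgenic mice. All 3 transgenic mice were above the wildtype mice, with the youngest nearest to them. The rise was 1.69-fold (log2 0.76, SE 0.17, adjusted p = 0.0192), and it was lost without either older transgenic mouse, without the wildtype mouse of 7 weeks or without that of 9 weeks. Loxl2 and Loxl4 lay near the floor in both genotypes.

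Elastic fibres consist of elastin on a scaffold of microfibrils. Of 11 measured genes, 2 rose and 0 fell. Mfap5, a glycoprotein of microfibrils, read 429, 635 and 344 in wildtype and 887, 1189 and 1588 in transgenic mice. The groups did not overlap, and the rise was 2.61-fold (log2 1.39, SE 0.27, limma adjusted p = 0.0115). By age the difference was log2 1.05 at 7 weeks, 0.91 at 8 weeks and 2.21 at 9 weeks, and the call was lost without the transgenic mouse of 8 weeks. Mfap3, a microfibril-associated glycoprotein, read 956, 978 and 920 against 1186, 1114 and 1266, a rise of 1.25-fold (log2 0.32, SE 0.08, adjusted p = 0.0347). Both Mfap3 probes passed, but the call was lost in 17 of 20 other settings, among them each left-out mouse and median scaling.

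Elastin did not pass. Eln read 852, 1523 and 554 in wildtype and 671, 872 and 1041 in transgenic mice, with the groups interleaved (log2 -0.08, 95% interval -0.89 to 0.73). Mfap4, a protein that binds elastic fibres, read 876, 728 and 794 against 1100, 925 and 1282 and stood just outside the threshold (log2 0.45, limma adjusted p = 0.0521). Fbln2, a fibulin of vessel walls and basement membranes, had the widest error of the class (SE 0.59), with signals from 461 to 1969 in wildtype and from 295 to 983 in transgenic mice. Fbln1, another fibulin, read 3842, 1341 and 2797 against 3298, 3224 and 2099 (log2 0.21, adjusted p = 0.729), with the wildtype mouse of 8 weeks the lowest. Mfap2, another microfibril glycoprotein, lay between 1545 and 1961 in wildtype and between 1617 and 1862 in transgenic mice. The fibril-organizing emilins did not pass: Emilin1 read 422, 476 and 478 against 360, 440 and 546, and Emilin2 read 156, 254 and 136 against 241, 254 and 249.

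Laminins are cross-shaped trimers of an alpha, a beta and a gamma chain, and nidogens join them to collagen IV. Of 9 such genes measured, 2 rose and 0 fell. Lamb3 encodes the beta chain of laminin-332, the laminin that anchors epithelial cells through hemidesmosomes. It read 118, 199 and 109 in wildtype and 387, 572 and 556 in transgenic mice. In wildtype mice of 7 and 9 weeks the probe was near the floor, and all transgenic mice were clear of it. The rise was 3.63-fold (log2 1.86, SE 0.25, limma adjusted p = 0.00255). Nid2, nidogen 2, read 275, 243 and 280 against 578, 619 and 597. Both groups were tight, and the rise was 2.25-fold (log2 1.17, SE 0.09, adjusted p = 0.000369).

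The paralog Nid1 read 599, 615 and 728 in wildtype and 530, 545 and 489 in transgenic mice, a difference of log2 -0.31 that did not pass (limma adjusted p = 0.0731). The other laminin chains measured did not pass either. Lamb2 read 1409, 931 and 1587 against 1336, 1564 and 1962 (log2 0.33, adjusted p = 0.339). Lamc1, the gamma chain of most laminins, read 1126, 1097 and 1067 against 964, 1305 and 1299. Lama1 read 341, 257 and 275 against 427, 286 and 201, and Lama2, the alpha chain around muscle cells, 463, 400 and 395 against 410, 340 and 386. Lamb1, the beta chain of the early widespread laminins, read 178, 179 and 176 against 123, 116 and 169 (log2 -0.40, adjusted p = 0.0891, and 0.0328 with the repeat number as a block). Lamc3, the gamma chain of rarer laminins, read 182, 204 and 167 against 384, 234 and 225 (log2 0.57, adjusted p = 0.0927, and 0.0202 with the repeat number as a block).

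Among the basement membrane and network collagens, both genes of 1 collagen IV pair fell, and whether the pairs differed from each other was not tested. The collagen IV genes lie in head-to-head pairs, Col4a1 with Col4a2, Col4a3 with Col4a4 and Col4a5 with Col4a6, each pair lying on opposite strands with neighbouring starts. Of the 7 genes of the class, Col4a5, Col4a6 and Col8a2 fell and 0 rose. Col4a5 read 537, 524 and 525 in wildtype and 355, 288 and 314 in transgenic mice. The wildtype mice were nearly equal, and the fall was 1.66-fold (log2 -0.73, SE 0.10, limma adjusted p = 0.00238). Col4a6, its partner, read 316, 249 and 336 against 209, 170 and 174, without overlap. It fell 1.62-fold (log2 -0.70, SE 0.14, adjusted p = 0.0128), and its other probe differed by log2 -0.70 (adjusted p = 0.00800). The Col4a6 call was lost without the transgenic mouse of 8 weeks. In the mouse, the alpha5 and alpha6 chains are known from basement membranes of smooth muscle and of some epithelia.

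The common chains of nearly all basement membranes did not pass. Col4a1 read 2136, 3067 and 2641 in wildtype and 1991, 4296 and 4639 in transgenic mice (log2 0.40, limma adjusted p = 0.414). The transgenic mouse of 7 weeks lay below all wildtype mice and the older transgenic mice above them, and without that mouse the gene passed (log2 0.79, adjusted p = 0.0165). Col4a2 read 1500, 2097 and 1934 against 1283, 1958 and 2946 (log2 0.09, adjusted p = 0.848). Col4a3 read 141, 181 and 120 against 197, 176 and 206 (log2 0.41, adjusted p = 0.104). Col4a4 read 165, 184 and 167 against 158, 220 and 275 (log2 0.31, adjusted p = 0.291, and log2 0.52 with adjusted p = 0.0287 without the transgenic mouse of 7 weeks). The fall of Col8a2, a collagen of the membrane under corneal endothelium, from 111, 128 and 124 to 95.5, 99.0 and 97.1 lay wholly near the floor (log2 -0.32, SE 0.09, adjusted p = 0.0406). It was lost without any 1 of 5 mice.

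**Figure D2:**
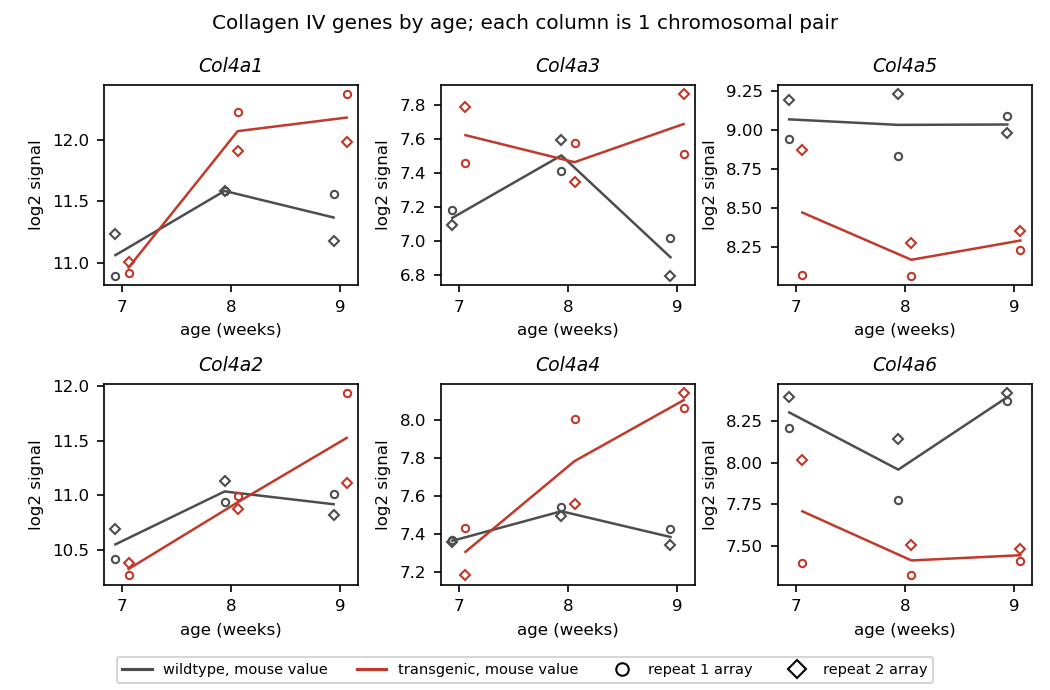
Log2 signal (vertical axis) against age in weeks (horizontal axis) for the 6 collagen IV genes, each column holding a chromosomal pair, with grey for wildtype and red for transgenic mice, lines through the mouse values, circles for repeat 1 arrays and diamonds for repeat 2 arrays. The red line lies below the grey line at every age for Col4a5 and Col4a6, and the lines of Col4a1 and Col4a2 cross.

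The start regions of the pair that fell and of the common pair are shown because the genes of a pair start close to each other on opposite strands. They come from RefSeq on GRCm38.p6 and run from 250 bases before to 50 bases after the annotated start, 5′ to 3′ on the strand of the gene. Col4a5 is at chrX:141475169-141475468 on the plus strand and Col4a6 at chrX:141474027-141474326 on the minus strand, with 1343 bases between their starts and no overlap of the genes there. Col4a1 is at chr8:11312777-11313076 on the minus strand and Col4a2 at chr8:11312555-11312854 on the plus strand, with starts 21 bases apart. Here the start of Col4a2 lies within Col4a1, so the annotated transcripts overlap by 22 bases and the windows share 78. Capitals mark a promoter box spelled CCAAT, and the letters of the common promoter element known as the GC box, GGGCGG, each on either strand.
Col4a5: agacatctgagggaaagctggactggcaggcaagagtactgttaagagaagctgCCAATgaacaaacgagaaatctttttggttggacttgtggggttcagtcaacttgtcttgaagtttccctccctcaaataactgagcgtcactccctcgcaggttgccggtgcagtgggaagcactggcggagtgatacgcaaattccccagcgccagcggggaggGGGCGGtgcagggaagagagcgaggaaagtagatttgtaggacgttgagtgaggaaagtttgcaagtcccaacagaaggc
Col4a6: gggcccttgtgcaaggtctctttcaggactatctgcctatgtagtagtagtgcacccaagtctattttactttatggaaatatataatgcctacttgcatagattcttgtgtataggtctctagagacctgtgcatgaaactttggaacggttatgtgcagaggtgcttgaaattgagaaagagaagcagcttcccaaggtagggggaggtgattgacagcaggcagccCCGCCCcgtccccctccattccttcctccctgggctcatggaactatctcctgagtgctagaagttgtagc
Col4a1: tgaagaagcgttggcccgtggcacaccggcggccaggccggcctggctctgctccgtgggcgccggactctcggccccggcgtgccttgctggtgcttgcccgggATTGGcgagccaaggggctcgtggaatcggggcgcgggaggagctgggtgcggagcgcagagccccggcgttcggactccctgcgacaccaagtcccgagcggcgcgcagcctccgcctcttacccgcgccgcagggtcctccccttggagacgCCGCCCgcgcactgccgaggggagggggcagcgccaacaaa
Col4a2: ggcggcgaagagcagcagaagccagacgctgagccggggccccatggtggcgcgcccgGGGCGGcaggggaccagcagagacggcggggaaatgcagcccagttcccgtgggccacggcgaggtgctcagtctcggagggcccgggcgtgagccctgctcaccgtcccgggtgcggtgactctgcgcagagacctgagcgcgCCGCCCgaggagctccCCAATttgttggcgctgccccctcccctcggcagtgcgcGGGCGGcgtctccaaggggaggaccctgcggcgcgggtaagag

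The windows of the common pair were 74% GC for Col4a1 and 73.7% for Col4a2, with 37 and 33 CpG dinucleotides. Those of the pair that fell were 52.7% GC for Col4a5 and 48.3% for Col4a6, with 11 and 3 CpG. A CCAAT box was present in the windows of Col4a1, Col4a2 and Col4a5 and not in that of Col4a6, and a GC box in all 4. Windows were given for 44 of the 68 matrix genes, 54 windows in all. The GC box was in 32 of these 54 windows and in 35.7% of all 32851 windows of the table. The CCAAT box was in 19 and in 37.4%. The letters TATAAA, the core of a box close to many starts, were in 8 and in 13.6%. TGACTCA (an AP-1 site) was in 1 of the 54 and in 5.20% of all. The E2F letters TTTGGCGC and TTTCGCGC were in 0 of the 54, against 0.514% and 0.323% of all windows. Both strands were searched, and each motif was counted on its own even where its letters overlap another's. These are descriptions of letters, not of bound sites.

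Fibrillar collagens form the bulk of the fibrils, and 0 of 10 passed in either direction, with a median log2 difference of -0.01. Of the 10, 6 lay near the floor in both genotypes, where any true difference is understated, so the median says little about the class. Col1a1, a chain of collagen I, read 3947, 4212 and 2355 in wildtype and 3173, 3926 and 5715 in transgenic mice. Its groups interleaved, and the difference was log2 0.29 (95% interval -0.36 to 0.94, limma adjusted p = 0.506). Its partner chain Col1a2 read 2871, 3475 and 1824 against 2322, 2167 and 2777 (log2 -0.13). Col3a1, the collagen of distensible tissues, read 1668, 2164 and 1170 against 1427, 1679 and 3168 (log2 0.28, adjusted p = 0.586). In all 3 genes the wildtype mouse of 9 weeks was the lowest of the wildtype mice and the transgenic mouse of 9 weeks the highest of the transgenic mice. Col5a1, which sets the start of collagen I fibrils, read 2759, 4230 and 1576 against 1601, 1597 and 1936 (log2 -0.63, 95% interval -1.38 to 0.12). The lowest p of the class belonged to Col27a1 (log2 -0.22, adjusted p = 0.115) and Col24a1 (log2 -0.43, adjusted p = 0.145), both near the floor.

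Collagen VI forms beaded filaments around cells. Col6a2 read 2023, 3432 and 1100 in wildtype and 832, 877 and 1384 in transgenic mice (log2 -0.97, limma adjusted p = 0.124). Col6a1 read 8029, 11679 and 5546 against 5013, 5008 and 6314 (log2 -0.57, adjusted p = 0.154). At 7 and 8 weeks the transgenic mouse was below the wildtype mouse in both genes, and at 9 weeks slightly above. Without the wildtype mouse of 9 weeks both passed, Col6a2 at log2 -1.39 (adjusted p = 0.0304) and Col6a1 at log2 -0.84 (adjusted p = 0.0371). Col7a1, which makes the anchoring fibrils under stratified epithelia, read 172, 196 and 209 against 270, 207 and 215 and did not pass (log2 0.26, 95% interval -0.04 to 0.56).

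**Figure D3:**
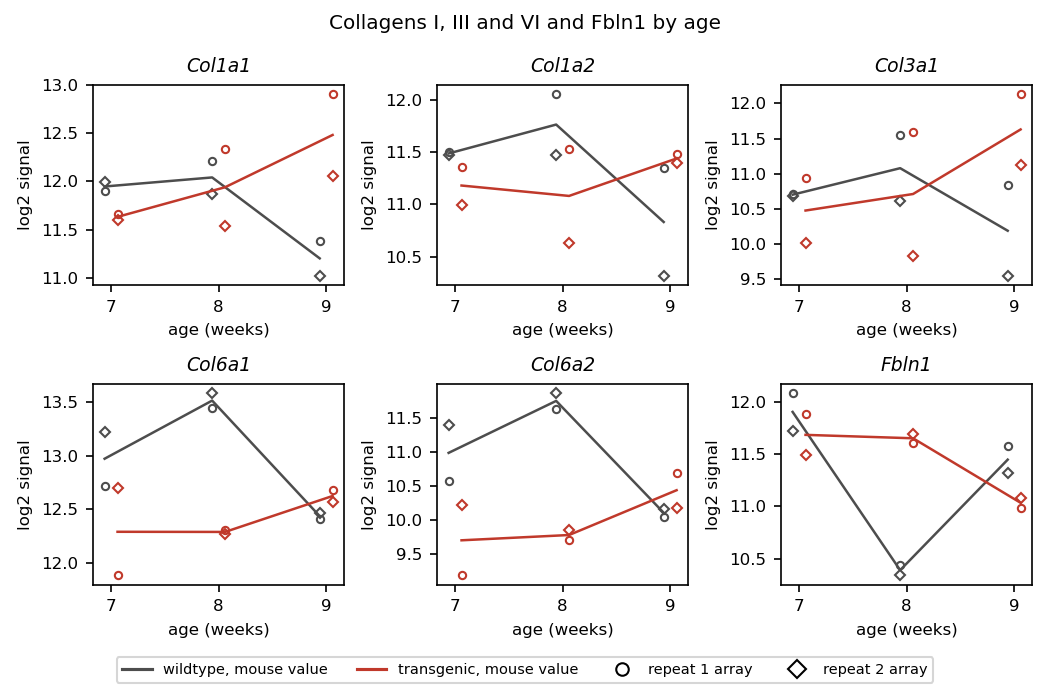
Log2 signal (vertical axis) against age in weeks (horizontal axis) for Col1a1, Col1a2, Col3a1, Col6a1, Col6a2 and Fbln1, with grey for wildtype and red for transgenic mice, lines through the mouse values, circles for repeat 1 arrays and diamonds for repeat 2 arrays. The 5 collagen lines cross between 8 and 9 weeks, and those of Fbln1 cross between 7 and 8 weeks and again before 9 weeks.

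Among the remaining collagens, Col15a1 fell. Collagen XV is a multiplexin, a proteoglycan collagen placed outside the basement membranes of vessels and muscle. Col15a1 read 1132, 1319 and 633 in wildtype and 416, 495 and 528 in transgenic mice, and the wildtype mouse of 9 weeks came near the transgenic mice. The fall was 2.06-fold (log2 -1.04, SE 0.26, limma adjusted p = 0.0285), with a difference of log2 -1.45 at 7 weeks, -1.41 at 8 weeks and -0.26 at 9 weeks. It was lost when any 1 of 5 mice was left out. Col18a1, the other multiplexin and the source of endostatin, read 2540, 1416 and 2312 against 1464, 1160 and 816 (log2 -0.86, adjusted p = 0.0629, and 0.0208 with the repeat number as a block).

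Fibril-associated collagens sit on fibrils of other types. Col9a2, best known from cartilage, read 180, 112 and 151 in wildtype and 394, 292 and 184 in transgenic mice. The groups did not overlap, yet the oldest transgenic mouse nearly reached the wildtype range, and the gene did not pass (log2 0.93, limma adjusted p = 0.0566, and 0.00661 with the repeat number as a block). Col16a1, a minor fibril-associated collagen, read 4860, 4776 and 3232 against 3283, 2777 and 3134 (log2 -0.46, adjusted p = 0.0907, and log2 -0.66 with adjusted p = 0.0129 without the wildtype mouse of 9 weeks). Col14a1, which binds the surface of collagen I fibrils, read 185, 141 and 130 against 177, 156 and 158 (log2 0.12). No fibril-associated collagen of the 3 measured passed. Col26a1 read 177, 327 and 148 against 528, 337 and 349 (log2 0.95, adjusted p = 0.0653, and 0.0138 with the repeat number as a block). Col23a1, a transmembrane collagen, read 403, 288 and 309 against 442, 398 and 303 (log2 0.19, adjusted p = 0.492).

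Matricellular proteins signal from the matrix without building it. Of 9 measured, Spon2 and Thbs3 fell and 0 rose. Thbs3, a thrombospondin of the pentameric kind, read 286, 261 and 236 in wildtype and 200, 187 and 179 in transgenic mice, a fall of 1.38-fold (log2 -0.47, SE 0.10, limma adjusted p = 0.0166). Of its other probes, 1 passed (log2 -0.61) and 1 did not (log2 -0.24), and the call was lost when any 1 of 3 mice was left out. The trimeric Thbs1, an activator of latent TGF-beta, read 124, 144 and 135 against 191, 190 and 145 (log2 0.37, adjusted p = 0.0820). Sparc, a collagen-binding protein, read 5834, 7366 and 5516 against 3246, 4369 and 5061, with no overlap (log2 -0.57, adjusted p = 0.0630, and 0.0199 with the repeat number as a block). Its other probe differed by log2 -0.20. Thbs2, an inhibitor of vessel growth, read 625, 418 and 544 against 519, 550 and 433, and Sparcl1, a relative of Sparc, 610, 477 and 700 against 454, 449 and 643, both with overlapping groups. Tenascin C, Tnc, read 157, 174 and 191 against 164, 173 and 125, and periostin, Postn, was near the floor in both genotypes (log2 0.36, adjusted p = 0.0597, and 0.0497 with the repeat number as a block). Mfap3l, matched by spelling, was near the floor too (log2 -0.22, adjusted p = 0.125).

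**Figure D4:**
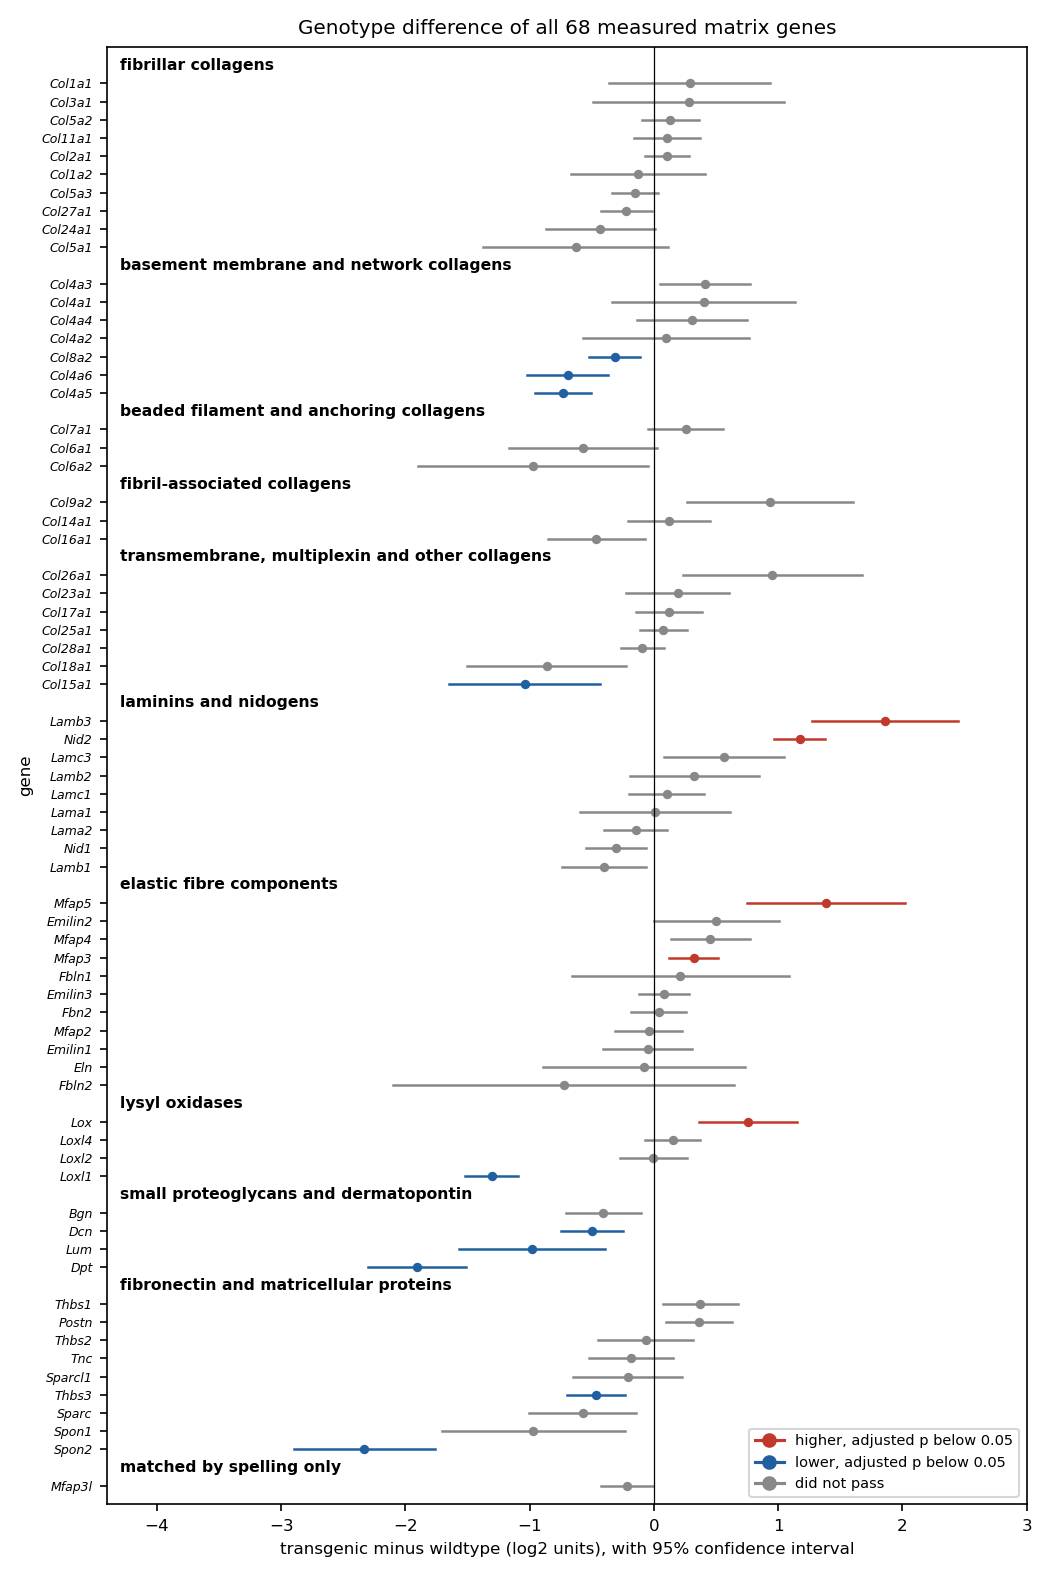
Genotype difference of each of the 68 measured matrix genes (horizontal axis, transgenic minus wildtype in log2 units, with bars for 95% confidence intervals), grouped by role, with red for higher, blue for lower and grey for genes that did not pass. The intervals of the fibrillar collagens all reach 0 or nearly so, while Spon2, Dpt and Loxl1 lie far to the left and Lamb3, Mfap5 and Nid2 to the right.

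No matrix gene passed a test that involved age. The interaction of genotype with age was passed by 0 of 68 (limma), as by 0% of all genes, and 5 had an unadjusted p below 0.05, against 7.13% of all genes. The lowest p values in limma belonged to Col1a1, whose genotype difference grew by log2 0.80 per week (adjusted p = 0.755), Col4a4 (log2 0.39 per week) and Col3a1 (log2 0.83 per week). A shared age trend was passed by 0 of 68, as by 0% of all genes, and 8 had an unadjusted p below 0.05, against 8.97% of all genes. Its lowest p values in limma belonged to Col4a2 (log2 0.39 per week, adjusted p = 0.574), Lama1 (log2 -0.35 per week, adjusted p = 0.589) and Col23a1 (log2 -0.23 per week).

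Other genes of matrix building were counted from lists. Of 21 collagen-processing genes, 0 rose and 6 fell, with a median log2 difference of -0.27 against -0.02 for all genes. The prolyl hydroxylases P4ha1 (log2 -0.72) and P3h3 (log2 -0.61) fell most, and Sec24d (log2 -0.43), a coat protein for procollagen export, and P3h1 (log2 -0.40), a prolyl 3-hydroxylase, least. Of 25 matrix receptors, 2 rose and 2 fell. Itgav (log2 1.10), the integrin chain that binds vitronectin, and Itgb4 (log2 0.39), the hemidesmosome integrin that binds laminin-332, rose. The hyaluronan receptor Cd44 (log2 -0.86) and the muscle laminin receptor Itga7 (log2 -0.56) fell.

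Of 20 TGF-beta pathway genes, 1 rose and 4 fell. Tgfbr1 (log2 0.67), a receptor kinase, rose. Ltbp1 (log2 -1.29) and Ltbp4 (log2 -1.13), which store latent TGF-beta on microfibrils, fell, as did Tgfb3 (log2 -0.65) and the endothelial co-receptor Eng (log2 -0.42). Of 45 other matrix proteins, 1 rose and 9 fell, with a median of -0.25. Chad (log2 -2.04), chondroadherin, and Smoc1 (log2 -1.88), a calcium-binding matrix protein, fell most, and Ccn4 (log2 -0.44) least. The proteoglycan Spock1 rose (log2 0.50). For each list 22.9% is the share of all genes past the threshold, with 10.4% higher and 12.5% lower.

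Some markers of the cells that make matrix also moved. Of all genes 12.5% were lower and 10.4% higher, the shares to set beside every marker count below. Of 10 smooth muscle markers, 8 fell and 0 rose. Their summed signal, dominated by the brightest probe of a list and compared only between mice, was 60062 to 66358 in wildtype and 39834 to 47468 in transgenic mice. Acta2, smooth muscle actin and the brightest of them, did not pass (log2 -0.08, limma adjusted p = 0.569), and without it the sums were 31354 to 38676 against 13164 to 19027. Of 5 mesothelial markers, 5 fell, with sums of 5644 to 7961 against 1490 to 2461. Of 10 endothelial markers, 5 fell, with sums of 5455 to 6419 against 3256 to 4693. The 9 fibroblast markers were mixed. Cd34 (log2 -0.72), Pi16 (log2 -0.70) and Fap (log2 -0.54) fell and 0 rose. Ly6c1 (log2 0.48), Twist2 (log2 0.45) and Pdgfra (log2 0.25), the brightest, lay higher without passing. Thy1 (log2 -0.40), Pdgfrb (log2 -0.26) and Tcf21 (log2 -0.21) lay lower without passing. The fibroblast sums overlapped, at 5692 to 6086 against 5813 to 5952. Of 5 pericyte markers 0 passed. The part of these shifts in the falls of the matrix genes was not tested.

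In the lining, 7 of 7 ciliated markers fell, with sums of 7677 to 9240 in wildtype and 2336 to 3578 in transgenic mice. Of 7 general epithelial markers 0 passed, with sums of 11361 to 13573 against 12647 to 14464. Of 6 secretory markers, Slc26a4 and Wfdc2 rose and Cftr fell, with sums of 28797 to 34294 against 31286 to 36600, or 6444 to 11268 against 12745 to 17661 without Ovgp1, and 3 of 3 proliferation markers rose. Of 5 macrophage markers, 3 rose and 1 fell, with sums of 3275 to 4233 against 4789 to 7430. Prnp fell among 3 nerve markers, while Ncam1 (log2 0.15) and Gfap (log2 0.09) lay near the floor and did not pass. Of the skeletal muscle markers, Acta1 fell and Tnnt3, near the floor, did not pass. Of 3 adipocyte markers 0 passed, with sums of 405 to 1122 in wildtype and 294 to 739 in transgenic mice, and Adipoq ran from 177 to 772 in wildtype mice. Of 5 ovary markers 0 passed. Their part in the rises of Lamb3, Nid2, Mfap5, Lox and Mfap3 was not tested.

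Some matrix genes differed between the repeat numbers of the arrays in the same direction in every mouse. Spon1, Dcn, Lamb1, Sparcl1, Col1a2, Loxl2 and Col3a1 were lower on the repeat 2 array than on the repeat 1 array in all 6 mice. Col4a6, Mfap3l, Col17a1 and Col7a1 were higher on it in all 6. The largest such gap of Col3a1 in a mouse was 1.76 on the log2 scale, wider than its genotype difference of 0.28. Each mouse had 1 array of each repeat number, so the genotypes were balanced for it. Over all probes, repeat differences correlated between mice at 0.109 to 0.638. In all genes such shared directions were not counted, so they are not read as a trait of the matrix genes.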

How the data were processed

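RNA of 6 mice was measured on 12 Illumina arrays, 2 per mouse. What the authors deposited is a score standardized array by array. GenomeStudio 1.6.0 is named in the submitters' processing notes; scale and centring are not given in the sources used here. They were solved per array from the grid of low values, and 100% of values then became signals with 1 decimal (tolerance 0.01 of a grid step). Lowest signals were 59.1 to 87.8 and median signals 136.9 to 332. Deposited medians, repeat 1 then repeat 2, were 0.106 and 0.0670, 0.143 and 0.0788, and 0.153 and 0.0110 in wildtype mice of 7, 8 and 9 weeks. In transgenic mice they were 0.190 and 0.0159, 0.222 and 0.0205, and 0.202 and 0.0559. A further unnormalized table has 24 per-sample columns, 12 of signal and 12 of detection p-values, deposited under names that match no single sample. They were not used, so no detection filter was applied.

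Signals were quantile-normalized, put on the log2 scale without background subtraction and averaged per mouse. Differences were tested two-sided with limma 3.58.1 (lmFit and eBayes, R 4.3.3), adjusted over 16664 probes by Benjamini-Hochberg at 0.05, with 4 residual degrees of freedom for genotype. Of these probes 15687 had 1 gene symbol, 0 several and 977 none. A gene was read from its probe of highest mean; of 15 matrix genes with several probes, 0 had probes called in opposite directions. Signals were called near the floor below 1.5 times the 5th percentile. Other tools were Python 3.11.15, numpy 2.4.6, pandas 2.3.3 and matplotlib 3.10.9. The scripts were checked on made-up data with known answers.

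Repeat differences correlated between mice at 0.109 to 0.638, over 0.1 in 15 of 15 pairs, so repeat numbers were taken to pair arrays; this rests on the data. Deviations of same-age mice correlated at 0.324, 0.0964 and -0.0707, so ages were not paired. The genes, lists and roles were chosen with earlier results of these data known. Genes past the threshold, those of lowest p and the brightest of each role were named by rule, and further matrix genes after their values were seen. P-values of the fits on mouse values measure the spread between 3 mice per genotype, which limits the precision. Those with the repeat number as a block or with array quality weights come from single arrays and also measure the spread between repeats.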

Additional observations from a re-analysis of the deposited data

Results flagged for a closer look

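In 8 matrix genes both arrays of a genotype lay above both arrays of the other at one age and below them at another. The share of all genes that did so was not counted, so the 8 are not read as a trait of the matrix genes. The values are transgenic minus wildtype on the log2 scale, from 1 mouse of each genotype per age. Col1a1 was -0.31 at 7 weeks and 1.28 at 9 weeks. Its partner Col1a2 was -0.31 and 0.61 at those ages, and Col4a2 was -0.23 and 0.61. Eln was -0.34 at 7 weeks, -0.81 at 8 weeks and 0.91 at 9 weeks. Col6a1 was -0.68 at 7 weeks, -1.22 at 8 weeks and 0.19 at 9 weeks, and Col6a2 was -1.28, -1.97 and 0.33 at the same ages. Fbln1, a fibulin of elastic fibres and basement membranes, was 1.27 at 8 weeks and -0.41 at 9 weeks. Fbn2, the fibrillin of developing microfibrils, was -0.18 at 7 weeks and 0.20 at 8 weeks, all near the floor. With 1 mouse per genotype and age, the difference between single ages was not tested, and the interaction with age as a number was passed by none of these 8 genes in limma.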

How the results depend on the processing

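With 3 mice per genotype, 9 of the 15 calls were lost when some single mouse was left out. The counts, 5 higher and 10 lower (10.4% and 12.5% of all genes), were 12 and 19 with array quality weights (15.3% and 18.2%) and 9 and 15 with the repeat number as a replicate block (12.9% and 15.6%), which kept all 15 calls. Both of these fits used single arrays in place of mouse values. Without both mice of 9 weeks 2 were higher (5.01%) and 11 lower (5.44%). Without both mice of 7 weeks 5 were higher (7.55%) and 5 lower (9.07%), and without both of 8 weeks 5 (4.03%) and 5 (4.72%). Leaving out each mouse gave 3 to 7 higher and 4 to 13 lower. The 4 came without the transgenic mouse of 8 weeks (6.09% of all genes) and the 13 without the wildtype mouse of 9 weeks (8.05%). The cause was not tested. Under median scaling, normexp background correction, the deposited values, the brighter probes, age as a block, an intensity trend, either repeat alone and any probe of a gene, counts stayed within 1.5 times. So they did without the array of lowest quality weight (transgenic, 7 weeks, repeat 2), a setting chosen after seeing the data. Of the 15 called genes 0 reversed in any setting. Spon2, Dpt, Loxl1, Col4a5, Nid2 and Lamb3 passed in all 20. Mfap3 was lost in 17, Col8a2 in 11 of 19, Col15a1 and Lox in 8, Lum in 7, Thbs3 in 7 of 19, Dcn in 4, and Col4a6 and Mfap5 in 2. Interaction and age trend gave 0 calls in every setting tried.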
